A study of Drosophila melanogaster with 16 samples.

Results

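GIIIspla2, a secreted phospholipase A2 of group III, and Pect, which encodes the enzyme that couples phosphoethanolamine to CTP, are 2 genes of phospholipid metabolism that shared an array of 6793 named genes. They were chosen by their log2 ratios of PTZ over NF in the heads of female flies at 12 hrs, where GIIIspla2 was high and Pect was low. Those 12 hrs values are given below as a description with no test, and the later values were known when the pair was chosen. Each gene had 2 spots, printed side by side, and all 4 spots held a value on all 16 arrays.

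The arrays compared heads of virgin Oregon-R females, a wild type strain without transgenes, kept on food with pentylenetetrazole (PTZ, a convulsant drug used to model epilepsy) at 8 mg/ml or on normal food (NF). All flies were 3 to 4 days old at the start and were housed 30 to a vial. PTZ and NF heads were compared after 12 hrs, on the 2nd day, on the 7th day and on the 14th day, with 4 arrays at each of the 4 time points. On the 14th day both the PTZ flies and their NF controls had spent the last 7 days on normal food, so this time point is withdrawal. Each array carried PTZ and NF from 1 parallel set of vials, and the labels call the sets biological replicates. Replicates 1 and 2 had PTZ in Cy5, and replicates 3 and 4 were dye swaps with PTZ in Cy3. One array, 7th day replicate 4, has a title of the 7th day and a treatment text of withdrawal, and it was kept by its title. RNA came from pools of whole heads, which hold brain, eye, fat body and muscle together, so fewer cells of a type and less RNA per cell cannot be told apart.

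Phospholipases A2 cut a fatty acid off the middle position of a membrane phospholipid and leave a lysophospholipid. Secreted forms such as GIIIspla2 depend on calcium, and the group III enzyme of bee venom is the best known of its kind. Pect makes CDP-ethanolamine, the activated head group from which phosphatidylethanolamine is built in the Kennedy pathway, and phosphatidylethanolamine is the most abundant phospholipid of fly membranes. Ethanolamine kinase, the enzyme before Pect, is encoded by eas, whose mutants have seizures after a mechanical shock and which was not among the rows named here.

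GIIIspla2 (CG1583) lies on chromosome X, is protein coding with 2 annotated transcripts and overlaps no other gene. Pect (CG5547) lies on chromosome 2L, is protein coding with 4 annotated transcripts and overlaps CG15482 at 1 end. These facts come from the Release 6 gene table, and no coordinates of the spotted cDNAs were used here.

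Every value below is a difference of PTZ from NF on the log2 scale, after each array was set to a median of 0 and the dye-swapped arrays were turned. A value of 1 is a doubling in PTZ heads relative to the middle of that array, and no value is a level of expression. Arrays held a value for 8709 to 21970 of 27648 spots. Before centring, the array medians ran from -0.22 to 1.57. Dye orientation showed in the arrays after the turn, most clearly at the first 2 time points. At 12 hrs the Spearman correlation across features was -0.44 to -0.32 between opposite orientations and 0.37 to 0.58 within one. On the 2nd day these ranges were -0.39 to -0.08 and 0.32 to 0.43, on the 7th day -0.08 to 0.34 and -0.09 to 0.43, and on the 14th day -0.37 to 0.35 and -0.06 to -0.04. Each gene is therefore given by dye at each time point, and a fit with a dye term stands among the alternatives.

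At 12 hrs GIIIspla2 was above 0 on all 4 arrays. Its values were 0.94, 0.52, 0.80 and 1.67 in replicates 1 to 4, a mean of 0.98 ± 0.49 (SD, n = 4) and a fold of 1.98. Replicate 4, the highest and with PTZ in Cy3, was the array of the series with the fewest spots with a value (8709). That array also had the largest SD across features (0.56). Without it the mean of GIIIspla2 was 0.75. The arrays with PTZ in Cy5 averaged 0.73 and those with PTZ in Cy3 averaged 1.24, so the gene was high in both orientations. Within its own array GIIIspla2 stood between the 94.2 and the 99.7 percentile of the features with a value. Its mean was rank 14 from the top among 5760 features and rank 3 among 3022 named genes. Of 3103 features measured on all 4 arrays, 4 stayed at or above the lowest GIIIspla2 value on every array, and of the 2 of these with a name the other was mRpS34, a mitochondrial ribosomal protein.

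Pect was below 0 on all 4 arrays at 12 hrs. Its values were -0.35, -0.88, -0.07 and -0.45, a mean of -0.44 ± 0.34 (SD, n = 4) and a fold of 0.738. Replicate 3 lay close to 0, at 0.08 before centring, and replicate 2 lay lowest. The Cy5 arrays averaged -0.62 and the Cy3 arrays -0.26. Within its array Pect stood between the 0.831 and the 37.8 percentile, and its mean was rank 19 from the bottom among named genes. Among the same 3103 features, 53 stayed at or below the highest Pect value on every array. For comparison, 4.51% of these features were above 0 on all 4 arrays and 3.64% were below 0 on all 4. Limma called 0% of 5760 features at 12 hrs at an adjusted p under 0.19 and took 2.34% at an unadjusted p under 0.05.

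**Figure D1:**
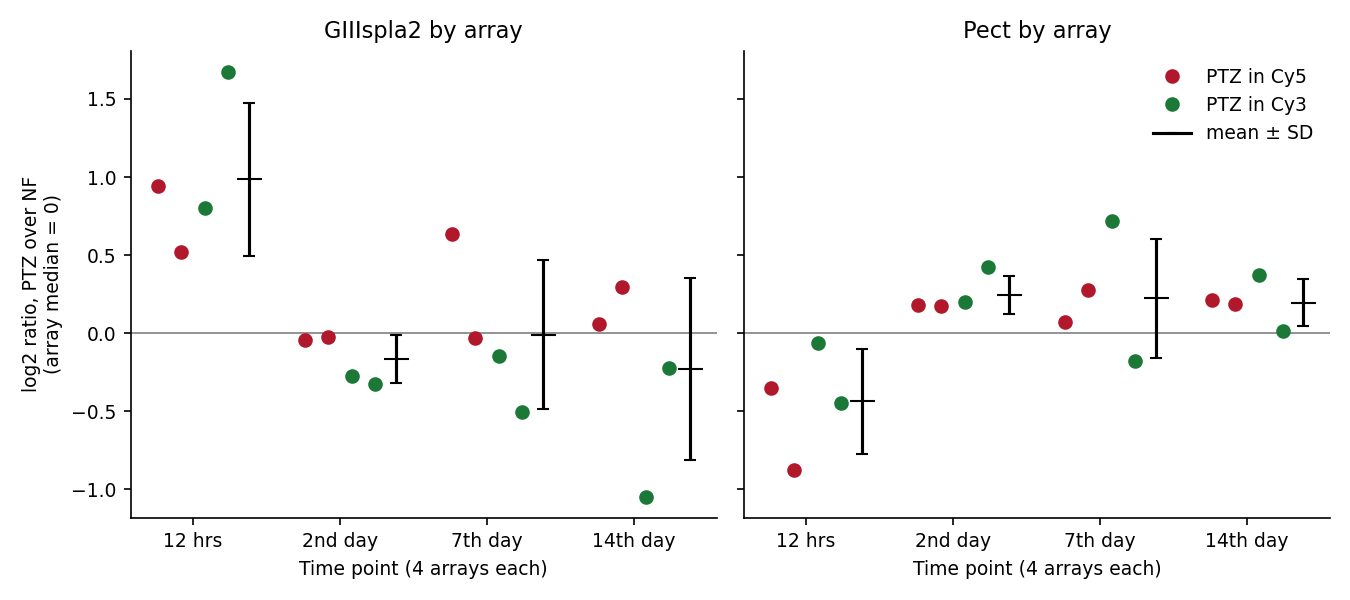
Log2 ratio of PTZ over NF for GIIIspla2 (left) and Pect (right) on each of 16 arrays, with the array median at 0; points are replicates 1 to 4 from left to right, coloured by the dye of the PTZ sample, and bars are the mean ± SD of 4 arrays. GIIIspla2 lay between 0.52 and 1.67 at 12 hrs and between -0.33 and -0.03 on the 2nd day, whereas Pect lay between -0.88 and -0.07 at 12 hrs and between 0.17 and 0.42 on the 2nd day.

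The 2 spots of each gene were read separately on every array. For GIIIspla2 they differed by 0.03 to 0.53 with a median of 0.14, and they had the same sign on 13 of 16 arrays. For Pect they differed by 0.04 to 0.42 with a median of 0.17, with the same sign on 14 of 16 arrays. Across the 16 arrays the correlation of the 2 spots was 0.95 for GIIIspla2 and 0.90 for Pect, and the spots of an array share its RNA and its hybridisation. At 12 hrs both spots of GIIIspla2 were above 0 and both spots of Pect were below 0 on all 4 arrays. The widest gap of each gene was on 12 hrs replicate 2, the array with its lowest 12 hrs value. There the spots gave 0.78 and 0.26 for GIIIspla2 and -0.67 and -1.09 for Pect.

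**Figure D2:**
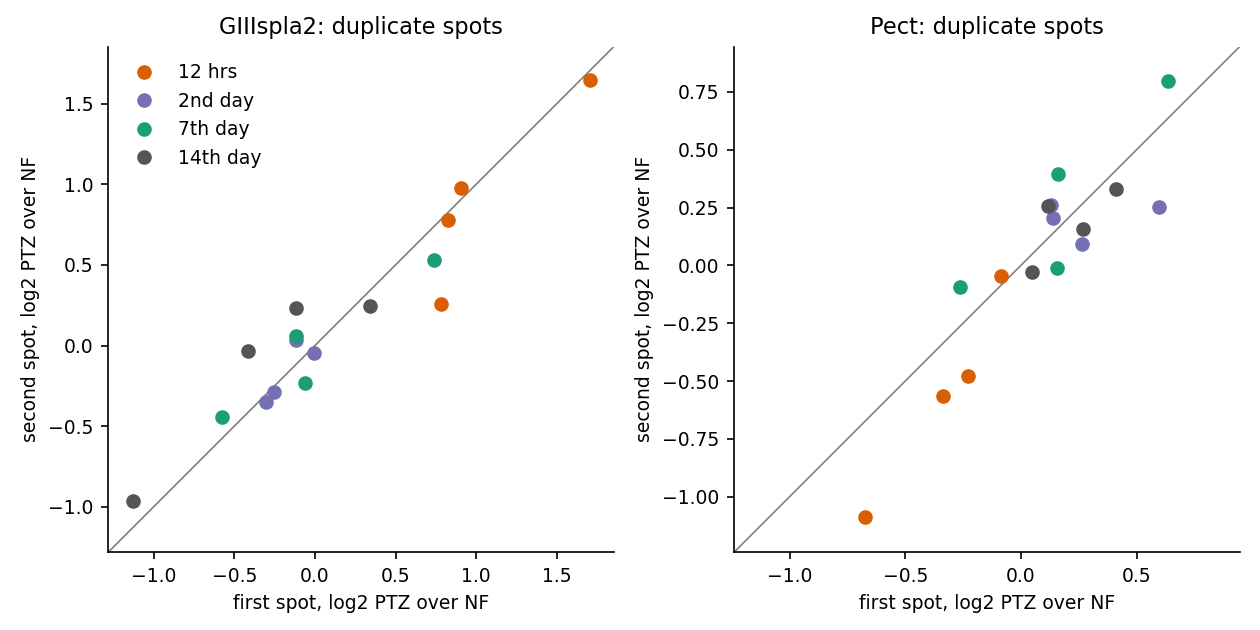
First spot (horizontal axis) against second spot (vertical axis) of GIIIspla2 (left) and Pect (right), as log2 PTZ over NF on each of 16 arrays coloured by time point; the grey line marks equal values. The widest gaps between spots were 0.53 for GIIIspla2 and 0.42 for Pect, both on 12 hrs replicate 2.

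On the 2nd day both genes stood on the other side of 0. GIIIspla2 gave -0.04, -0.03, -0.27 and -0.33, a mean of -0.17 ± 0.15 (SD, n = 4), below 0 on 4 of 4 arrays as were 6.7% of features with 4 arrays. The Cy5 arrays averaged -0.03 and the Cy3 arrays -0.30. The mean was not called by limma (95% interval -0.37 to 0.04, adjusted p = 1), and the exact two-sided sign-change test gave p = 0.125, the smallest that 4 arrays allow.

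Pect gave 0.18, 0.17, 0.20 and 0.42 on the 2nd day, a mean of 0.24 ± 0.12 (SD, n = 4) and a fold of 1.18. All 4 arrays were above 0, as in 5.71% of features with 4 arrays. Replicates 1 to 3 lay within a narrow range and replicate 4 stood above them. Before centring, replicate 2 was at -0.03 and the others were above 0. The Cy5 arrays averaged 0.17 and the Cy3 arrays 0.31. With limma the 95% interval was 0.06 to 0.43 and the unadjusted p was 0.0192, but over all features tested the adjusted p was 0.736, above the threshold of 0.19. Pect was rank 49 from the top among 2850 named genes. The exact two-sided sign-change test again gave p = 0.125, the smallest possible. Neither of the 2 genes was thus called on the 2nd day, where limma called 0.222% of 5415 features at an adjusted p under 0.19. At an unadjusted p under 0.05 limma took 1 of the 2 genes, against 4.82% of all features. That unadjusted p of Pect was above 0.05 without centring (0.0945), with trend and robust eBayes (0.0618), in a limma fit of all 16 arrays (0.0936) and without replicate 4 (0.0752). It stayed under 0.05 with arrays centred on the mean (0.0189) and with the first (0.0342) or second spot alone (0.0232). Without replicate 1, 2 or 3 it was 0.0426, 0.0316 and 0.0455. With a dye term the unadjusted limma p was 0.0161 for Pect and 0.0283 for GIIIspla2. That fit thus took both genes, against 7.94% of all features, and called neither.

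A change from above 0 on all 4 arrays at 12 hrs to below 0 on all 4 arrays on the 2nd day, as in GIIIspla2, was seen in 8 of 104 features (7.69%) that were above 0 throughout at 12 hrs and had 4 arrays at both times. The opposite change, as in Pect, was seen in 2 of 91 features (2.2%). By the 14th day, 3 of 74 features (4.05%) had gone from below 0 to above 0 on all arrays, Pect among them. The pair was chosen at 12 hrs with later values already known, so these shares are a description.

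On the 7th day the arrays of each gene fell on both sides of 0, whereas 6.91% of features with 4 arrays were above 0 on all of them and 10.5% below. GIIIspla2 gave 0.64, -0.03, -0.15 and -0.51, a mean of -0.01 ± 0.48 (SD, n = 4), with replicate 1 alone above 0. Without replicate 1 its mean was -0.23, and without replicate 4, the array with conflicting labels, it was 0.15. The Cy5 arrays averaged 0.30 and the Cy3 arrays -0.33. Pect gave 0.07, 0.28, 0.72 and -0.18, a mean of 0.22 ± 0.38 (SD, n = 4). The 1 array of Pect below 0 was again replicate 4, and without it the mean was 0.36. The Cy5 arrays of Pect averaged 0.17 and the Cy3 arrays 0.27. Neither gene was called by limma (GIIIspla2 95% interval -0.44 to 0.41, adjusted p = 0.985; Pect 95% interval -0.15 to 0.59, adjusted p = 0.678), at a time point where 0% of 7289 features were called. At an unadjusted p under 0.05 limma took 8.4% of features there and neither gene of the pair.

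On the 14th day, after withdrawal, Pect was above 0 on 4 of 4 arrays, as were 4.42% of features with 4 arrays, while 2.96% were below 0 on all 4. Its values were 0.21, 0.19, 0.37 and 0.01, a mean of 0.20 ± 0.15 (SD, n = 4) with a 95% interval of -0.15 to 0.55. The Cy5 arrays averaged 0.20 and the Cy3 arrays 0.19, and before centring replicate 4 was at -1.51 with the others above 0. GIIIspla2 gave 0.06, 0.29, -1.05 and -0.22, a mean of -0.23 ± 0.58 (SD, n = 4) with a 95% interval of -0.73 to 0.27. Replicate 3 of GIIIspla2 stood far below the others, and without it the mean was 0.04, on the other side of 0. For GIIIspla2 the Cy5 arrays averaged 0.18 and the Cy3 arrays -0.64, on opposite sides of 0. Limma gave an adjusted p of 1.00 for each gene and called 0% of 6464 features. At an unadjusted p under 0.05 it took 2.18% of features and neither gene.

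**Figure D3:**
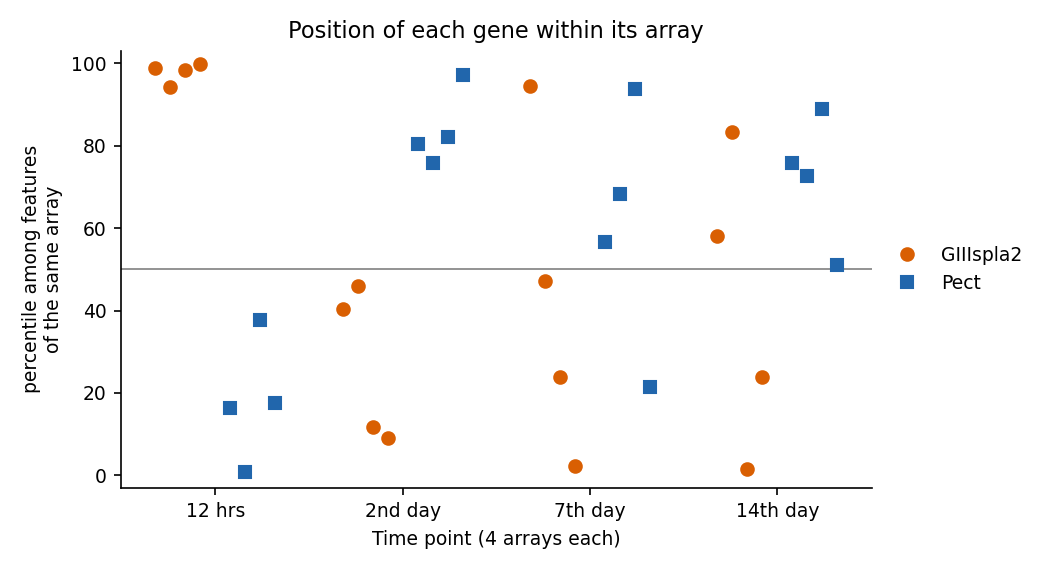
Percentile of GIIIspla2 (circles) and Pect (squares) among the features of the same array, for 4 arrays at each time point; the grey line marks the middle of the array. At 12 hrs GIIIspla2 stood at 94.2 or higher and Pect at 37.8 or lower. On the 2nd day GIIIspla2 ran from 8.99 to 46 and Pect from 75.7 to 97.1. On the 7th day GIIIspla2 ran from 2.3 to 94.4 and Pect from 21.5 to 93.8. By the 14th day the ranges were 1.54 to 83.3 and 50.9 to 88.9.

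In the order of their means, GIIIspla2 was highest at 12 hrs (0.98), then on the 7th day (-0.01), the 2nd day (-0.17) and the 14th day (-0.23). Its 12 hrs arrays all lay above those of the 2nd day, as in 1.31% of 2364 features, and above those of the 14th day, as in 0.461% of 1736 features. They overlapped those of the 7th day through replicate 1. The 3 later time points overlapped each other. The differences from 12 hrs were -1.15 on the 2nd day, -0.996 on the 7th and -1.21 on the 14th, and they are not tested because 12 hrs chose the gene. Among the later time points, limma gave 0.15 for the 7th day minus the 2nd (95% interval -0.36 to 0.67, adjusted p = 0.855), -0.06 for the 14th minus the 2nd (adjusted p = 1) and -0.22 for the 14th minus the 7th (95% interval -0.92 to 0.49, adjusted p = 0.861).

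Pect had nearly equal means on the 2nd (0.24), 7th (0.22) and 14th day (0.20), and its lowest mean at 12 hrs (-0.44). Its 12 hrs arrays all lay below those of the 2nd day, as in 0.423% of features, and below those of the 14th day, as in 1.09%. They overlapped those of the 7th day. Since 12 hrs chose both genes, nothing is read from these shares. The later means stood above 12 hrs by 0.68, 0.66 and 0.63, again with no test. Limma gave -0.02 for the 7th day minus the 2nd (95% interval -0.45 to 0.41, adjusted p = 0.983), -0.05 for the 14th minus the 2nd (95% interval -0.35 to 0.25, adjusted p = 1) and -0.03 for the 14th minus the 7th (95% interval -0.49 to 0.44, adjusted p = 0.979). No difference between later time points was called for either gene. For the 7th day minus the 2nd, limma called 0.0238% of 4196 features, for the 14th minus the 2nd 0.0525% of 3808 and for the 14th minus the 7th 0% of 5881. At an unadjusted p under 0.05 no such difference of either gene was taken, against 6.29%, 3.41% and 7.65% of features in the same order. These intervals still hold differences of about the size of the SD between arrays.

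The difference of GIIIspla2 minus Pect within an array does not depend on how the array is centred. At 12 hrs it was 1.29, 1.40, 0.87 and 2.12, a mean of 1.42 ± 0.52 (SD, n = 4), so that the ratio of GIIIspla2 to Pect was 2.68 times higher in PTZ than in NF heads. On the 2nd day it was -0.22, -0.20, -0.47 and -0.75, with a mean of -0.41 ± 0.26 (SD, n = 4), below 0 on 4 of 4 arrays. On the 7th day it was 0.57, -0.31, -0.86 and -0.33, and on the 14th day -0.16, 0.11, -1.42 and -0.23. The 12 hrs arrays lay above all 12 later arrays in this difference. The pair was chosen for its opposite 12 hrs values with later values known, so nothing is read from this. Over 16 arrays the 2 genes had a Pearson correlation of -0.60, which was -0.15 without 12 hrs, and the points share their arrays and the time points.

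CG15482, the gene that overlaps Pect at its end, had spots of its own with values on 9 arrays. At 12 hrs it gave -0.46, -0.91 and -0.11 in replicates 1 to 3, beside -0.35, -0.88 and -0.07 for Pect. On the 7th day it gave 0.17, 0.64, 0.72 and 0.30 and was above 0 on 4 of 4 arrays, with a mean of 0.46 (limma 95% interval 0.14 to 0.78, adjusted p = 0.589). It was on too few arrays on the 2nd and 14th day for a fit. CG15482 and Pect had the same sign on 8 of 9 arrays and a Pearson correlation of 0.88 over 9 arrays, or 0.51 over the 6 arrays after 12 hrs. Whether the spots of these overlapping genes share sequence was not tested. The other annotated neighbours of Pect with a fit at 12 hrs lay between -0.10 (Edem2) and 0.14 (mRF1), and those of GIIIspla2 at -0.02 (CG10761) and 0.03 (Gbeta5).

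**Figure D4:**
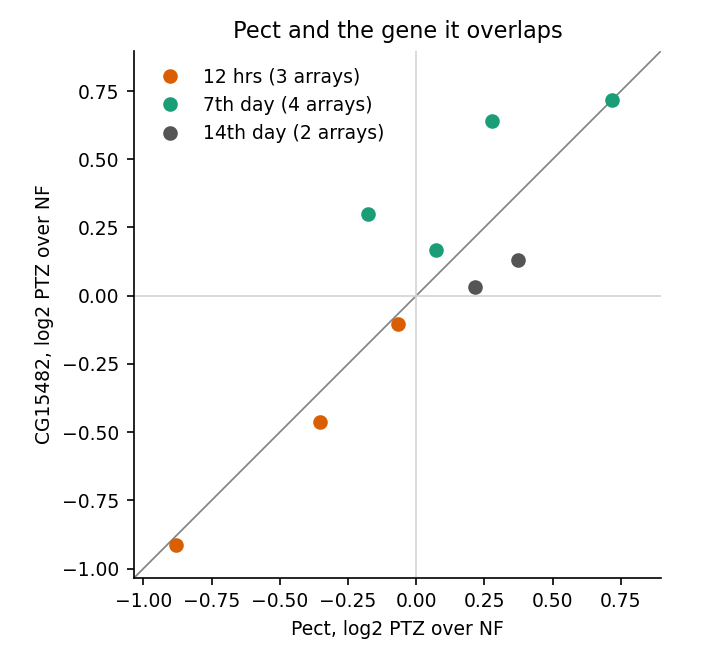
Pect (horizontal axis) against CG15482 (vertical axis), both as log2 PTZ over NF, on the 9 arrays with a value for both, coloured by time point; the dark grey line marks equal values. At 12 hrs the 3 points lie near that line, from -0.07 to -0.88 for Pect.

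The other phospholipases A2 on the array were measured less often than GIIIspla2. Of the 8 listed phospholipase A2 genes, 6 were on the array, and GIIIspla2 was the 1 with enough arrays at 12 hrs and on the 14th day. GXIVsPLA2, a secreted enzyme of group XIV, averaged -0.04 on the 2nd day and 0.33 ± 0.27 (SD, n = 4) on the 7th day, above 0 on 4 of 4 arrays (limma adjusted p = 0.589). The calcium-independent phospholipase iPLA2-VIA averaged -0.04 on the 2nd day and -0.23 ± 0.43 (SD, n = 4) on the 7th day. The secreted enzyme sPLA2 averaged -0.04 on the 7th day. Limma called 0 of 3 phospholipase A2 genes measured on the 2nd day and 0 of 4 on the 7th, beside 0.222% and 0% of all features, so the counts say nothing about the family.

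Of 10 listed genes for the synthesis of phosphatidylethanolamine, phosphatidylcholine and phosphatidylserine, 6 were on the array. Pect was the 1 furthest from 0 at 12 hrs and on the 2nd and 7th day. It was chosen for its 12 hrs value with later values known, so this order is a description. CG2201, a choline and ethanolamine kinase homologue, averaged 0.11 ± 0.08 (SD, n = 4) at 12 hrs, -0.01 on the 2nd day, -0.13 on the 7th and -0.02 on the 14th. The bbc gene, whose enzyme joins the CDP-activated head group to diacylglycerol after the step of Pect, averaged 0.07 at 12 hrs and 0.09 on the 2nd day. CG7149, a related phosphotransferase, averaged -0.13 at 12 hrs, -0.13 on the 2nd day, 0.07 on the 7th and 0.05 on the 14th. Pss, the phosphatidylserine synthase, averaged 0.06, 0.06, -0.05 and 0.22 at the 4 time points. Pcyt2, the counterpart of Pect in the choline branch, averaged -0.18 on the 7th day and -0.06 on the 14th. None was called by limma (adjusted p from 0.740 to 1 without Pect).

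**Figure D5:**
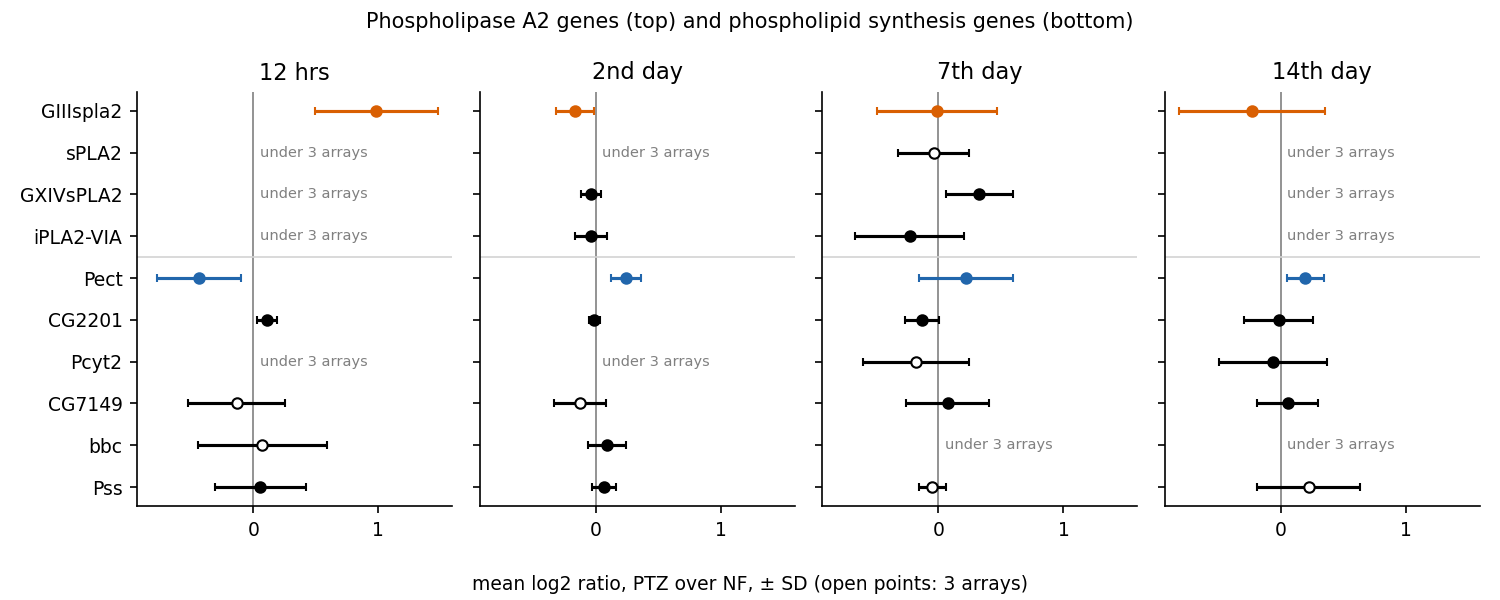
Mean log2 ratio of PTZ over NF ± SD at 4 time points for phospholipase A2 genes (above the line) and genes of phosphatidylethanolamine, phosphatidylcholine and phosphatidylserine synthesis (below it); filled points rest on 4 arrays and open points on 3. At 12 hrs GIIIspla2 at 0.98 and Pect at -0.44 are the points furthest from 0, and these values chose the pair. No other phospholipase A2 gene has a point at 12 hrs.

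Across all 6 lists of phospholipid metabolism, without the pair, 36 of 52 listed genes were on the array. At 12 hrs 21 were measured on at least 3 arrays, with a median of 0.04 and a range from -0.39 (Agpat1, an acyltransferase that makes phosphatidic acid) to 0.29 (AcCoAS, the acetyl-CoA synthase, above 0 on 4 of 4 arrays), and limma called 0 of 21, beside 0% of all features. On the 2nd day 25 were measured, with a median of 0.02 and a range from -0.14 (Gpat4) to 0.36 (Desat1, a fatty acid desaturase). On the 7th day 27 were measured, with a median of -0.04 and a range from -0.31 (Agpat3) to 0.33 (GXIVsPLA2). On the 14th day 22 were measured, with a median of 0.01 and a range from -0.29 (Lpin, the phosphatidic acid phosphatase) to 0.25 (Agpat4). Of these extremes, Agpat1 (SD 0.55), Desat1 (SD 0.43), Lpin (SD 0.34) and Agpat4 (SD 0.23) rested on 3 arrays. AcCoAS and Desat1 come from the SREBP list. The median of all features lay between -0.01 and 0.00 at each time point. Limma called 0 of these genes at all 4 time points, and at an unadjusted p under 0.05 it took 1 of 21, 1 of 25, 1 of 27 and 0 of 22, beside 2.34%, 4.82%, 8.4% and 2.18% of all features. With so few genes measured, these counts lie near the background. The gene taken on the 2nd day was mino, the mitochondrial glycerol phosphate acyltransferase, at 0.23 ± 0.08 (SD, n = 4) and above 0 on 4 of 4 arrays (limma adjusted p = 0.718).

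The single lists held few members. For phosphatidic acid, phosphatidylinositol and cardiolipin synthesis, the medians were 0.06, 0.01, 0.00 and 0.09 over 6, 6, 8 and 7 genes at the 4 time points, and PGS1, an enzyme of cardiolipin synthesis, averaged 0.32 on the 7th day. For phospholipid remodelling and breakdown, the medians were 0.00, 0.04, 0.06 and -0.07 over 4, 6, 5 and 3 genes. Of those genes, 2, 5, 3 and 1 had means above 0. The lysophospholipid acyltransferase oys averaged -0.26 at 12 hrs, where all 4 of its arrays were negative, and its 7th day mean was 0.17. A gene of the same enzyme family, frj, averaged -0.20 on the 7th day. Among phospholipase C and diacylglycerol kinase genes, the medians were -0.19, -0.01, -0.05 and -0.03 over 3, 3, 4 and 4 genes. Dgkepsilon averaged -0.19 at 12 hrs and rdgA averaged 0.15 on the 2nd day. All 4 arrays of Dgkepsilon were negative at 12 hrs, and 3.64% of features with 4 arrays behaved like it and oys. All 4 arrays of rdgA were positive on the 2nd day, like 5.71% of such features. Limma called none of these genes. In flies phosphatidylethanolamine holds back the processing of SREBP, a transcription factor of lipid synthesis. SREBP averaged -0.12 at 12 hrs and 0.13 on the 2nd day, while among its target enzymes FASN1, the fatty acid synthase, averaged -0.21 at 12 hrs and AcCoAS averaged 0.29.

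By Pearson correlation of the log2 differences over at least 12 shared arrays, among 2117 named genes, the genes most like GIIIspla2 were IPIP (0.80 over 15 arrays), CG8654 (0.78 over 14), CG12911 (0.76 over 12), CG15760 (0.72 over 12) and Fam92 (0.71 over 12). Without 12 hrs, whose values chose the gene, these correlations were 0.54, 0.35, 0.68, 0.94 and 0.71 in the same order. Fam92 had no value at 12 hrs, so both of its correlations rest on the same arrays. CG8654, which averaged 0.61 at 12 hrs, was also at -1.10 on the 2nd day. The genes most like Pect were CG7990 (0.81 over 15 arrays), CG15711 (0.80 over 15), t (0.72 over 16), Cals (0.69 over 14) and SREBP (0.69 over 12). Without 12 hrs they were 0.72, 0.65, 0.64, 0.59 and 0.56. These genes were the highest of many and share arrays and time points with the pair, so the correlations are a description.

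Markers of tissues that a head holds were set beside the pair. Of 13 fat body markers on the array, those with enough arrays had medians of -0.17 at 12 hrs over 6 genes, -0.31 on the 2nd day over 8, -0.23 on the 7th over 5 and 0.34 on the 14th over 5. On single arrays the marker median was lowest at -0.66 and highest at -0.08 at 12 hrs. It lay between -0.49 and -0.02 on the 2nd day, between -0.61 and 0.04 on the 7th, and between 0.08 and 0.36 on the 14th. On the 2nd day limma called 2 of 8 as lower, against 0.203% of all features, the female fat body gene fit (-1.25, adjusted p = 0.0347) and the adipokinetic hormone receptor AkhR (-0.54, adjusted p = 0.145). The lipase gene bmm averaged 0.60 on the same day, above 0 on 4 of 4 arrays and not called (limma adjusted p = 0.373), and Lsp2 averaged 0.08. These were the 2 markers above 0 that day, and 6 lay below. Among those, apolpp averaged -0.73, below 0 on 4 of 4 arrays and not called (limma adjusted p = 0.404). At 12 hrs 5 of 6 markers lay below 0, and apolpp averaged -0.50, below 0 on 4 of 4 arrays and not called. Eye markers, among them inaC and inaD with a value on all 16 arrays, had medians between -0.05 and 0.08. The 3 neuron markers on the array had medians between -0.12 and 0.11, over 2, 1, 3 and 3 genes at the 4 time points. The 5 muscle markers had medians between 0.08 and 0.16, over 3, 4, 5 and 4 genes. On the 7th day the muscle marker Act88F averaged -0.39 and the eye marker Arr1 -0.41. Each was below 0 on 4 of 4 arrays and not called (limma adjusted p = 0.589). That day 3 of 5 muscle markers and 2 of 5 eye markers lay above 0. The part of fat body in the values of GIIIspla2 and Pect was not tested.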

How the data were processed

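The study hybridised PTZ and NF head RNA to 2-colour cDNA arrays. The authors scanned the slides, normalized the ratios in Acuity, removed weak, saturated, bad and uneven spots, and deposited 1 table of log2 ratios of red over green. How it was centred is not given in the sources used. Dye direction came from the labels and methods. Raw intensities were not used here, so the number of arrays limits the precision.

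Gene names came from the platform annotation, brought to current symbols with the Release 6 gene table. The 53 values at the ceiling of 16.61 were set missing. Rows of 1 gene were averaged, and unnamed neighbouring rows were averaged as a pair. The median of every array was set to 0, and dye-swapped arrays were turned. With R 4.3.3 and limma 3.58.1 (lmFit, eBayes, Benjamini-Hochberg over all features, adjusted p under 0.19, at least 3 of 4 arrays), the mean of a time point was tested against 0 and later time points were compared. The 12 hrs values of the pair were not tested, since they chose it. Fits were tested on simulated data first.

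Members and lists were chosen with earlier results of these data known. The text names both genes throughout, all measured members of their own 2 lists, the 2 members with the smallest p in other lists (not all of them are printed), list extremes, overlapping genes and neighbours, the 5 most alike genes and called markers. The list extremes, mRpS34, some neighbours and some markers that were not called were named after their values were seen. Alternatives covered centring, a dye term, features on all 4 arrays, single spots, eBayes settings, the threshold, the fit of 16 arrays with and without a replicate block, exact permutation tests and each replicate left out. Limma p-values set a mean or a difference against the spread between these arrays, moderated over all features by eBayes.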

Additional observations from a re-analysis of the deposited data

Results flagged for a closer look

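On the 2nd day the Pect value of replicate 4, 0.42, lay apart from the other 3 arrays of its time point, which lay between 0.17 and 0.20. Its gap to the nearest array was 0.901 of the range of the group, over Dixon's critical value for 4 arrays, a limit that chance passes in about 1 in 20 groups. Without this array the 2nd day mean of Pect was 0.18.

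In 3 comparisons with 12 hrs every array of one time point had the opposite sign to every array of the other. They were GIIIspla2 on the 2nd day minus 12 hrs, with a difference of -1.15, Pect on the 2nd day minus 12 hrs, with 0.68, and Pect on the 14th day minus 12 hrs, with 0.63. These differences were not tested, since 12 hrs chose the genes.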

How the results depend on the processing

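Neither gene was called by limma at a later time point, or in a difference between later time points, under any alternative run. The direction of the 12 hrs mean held for both genes under each. With values as deposited and not centred, the direction turned for GIIIspla2 on the 7th day (0.11), the 14th day (0.0165) and the 14th minus the 2nd (0.19), and for Pect in the 7th minus the 2nd (0.11), the 14th minus the 2nd (0.21) and the 14th minus the 7th (0.0941). It also turned for Pect in the 14th minus the 7th when arrays were centred on the mean (0.0220) or the first spot alone was used (0.0408), and with the second spot alone for GIIIspla2 in the 14th minus the 2nd (0.0326) and Pect in the 7th minus the 2nd (0.0691). Values not centred differ from the main ones only by the array medians, which ran from -0.22 to 1.57. The cause of the other turns was not tested.

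With each replicate left out in turn, GIIIspla2 ranged from 0.75 to 1.14, -0.21 to -0.11, -0.23 to 0.15 and -0.40 to 0.0427 at 12 hrs and the 2nd, 7th and 14th day, and its differences from -0.0614 to 0.32 (7th minus 2nd), -0.24 to 0.21 (14th minus 2nd) and -0.39 to 0.0544 (14th minus 7th). Pect ranged from -0.56 to -0.29, 0.18 to 0.27, 0.06 to 0.36 and 0.14 to 0.26 at the 4 time points, and its differences from -0.19 to 0.11, -0.11 to 0.0154 and -0.16 to 0.14 in the same order.

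Replicate numbers did not pair the arrays throughout: 6 of 24 same-number correlations were over 0.1 (range -0.20 to 0.31), and an array was most like its own number in 17 of 48 comparisons. Between the 7th and 14th day these correlations were 0.25, 0.31, -0.11 and -0.08 for numbers 1 to 4. There 7th day replicate 3 correlated at 0.38 with 14th day replicate 4. The array with conflicting labels, 7th day replicate 4, correlated at 0.45 with 14th day replicate 3. Each 7th day array thus had a different closest array on the 14th day, and the reason was not tested. The labels do not link these arrays, and the 14th minus 7th day comparisons treat them as separate. With the replicate block, the 2nd day mean of Pect stayed at 0.24 (limma adjusted p = 1.00) and that of GIIIspla2 at -0.17 (adjusted p = 1.00), and the calls over 3162 features on the 2nd day went from 5 to 4. Over all features, limma called 12 on the 2nd day, 0 with trend and robust eBayes, 4 at an adjusted p under 0.05, and 0 to 10 with a replicate left out. For the 7th day minus the 2nd it called 1, and 26 without centring. With a dye term the adjusted p on the 2nd day was 0.462 for Pect and 0.553 for GIIIspla2.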
